A study of Rattus norvegicus with 8 samples.

Results

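The MHC class II antigen presentation genes were followed in the hippocampal dentate gyrus (DG) of 8 adult female Sprague-Dawley rats after kainic acid-induced status epilepticus (SE). The group comprises 9 named genes, RT1-Da, RT1-Db1, RT1-Ba, RT1-Bb, RT1-DMa, RT1-DMb, Cd74, Ciita and Ctss, and its members were all non-control spots of the arrays that the files name for 1 of these genes. That rule found 14 spots for 8 of the 9 genes, among 43379 non-control spots and 35250 gene names on the arrays, and no spot carried the name RT1-DMb. Levels were obtained for 7 of the 9 genes in all rats, out of 20825 genes quantified in all.

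All rats were ovariectomized (OVX) and all underwent SE. Group COS (n = 4) received oil and group CES (n = 4) received estradiol benzoate (E2). According to the sample records, CES rats had 4 doses of 2 μg at intervals of 24 h, of which 2 came before SE and 2 after it. The records give 16 mg/kg of kainic acid and an SE of 5 h that was ended with pentobarbital. The methods of the study describe a lower dose of kainic acid, diazepam, and hormone given wholly before the convulsant, and nothing in the deposited files decides between these accounts. For the time of tissue collection the methods name both 24 h after SE and, for the arrays, 2 h from the onset of continuous seizures. Which time applies to these rats was not settled here. Rats without SE were not analysed here, so every value below compares E2 with oil after SE and none compares SE with its absence.

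MHC class II molecules display peptides from ingested proteins to CD4+ T cells. An alpha and a beta chain assemble in the endoplasmic reticulum around the invariant chain Cd74, which blocks the peptide groove and guides the complex to endosomes. There cathepsin S (Ctss) trims Cd74, and the DM heterodimer exchanges its last fragment for an antigenic peptide. The transactivator Ciita, induced by interferon gamma, switches these genes on together, and in brain the pathway is best known from activated microglia, perivascular macrophages and infiltrating immune cells. RT1-D and RT1-B are the rat class II molecules that correspond to human HLA-DR and HLA-DQ.

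Each array held a Cy3-labeled and a Cy5-labeled rat of the same group, and all 4 arrays lay on 1 slide. Spots counted as valid in a rat if the foreground reached 2 times the background, which held for 32381 to 38553 spots in COS and 30690 to 35352 in CES. The level of a gene is the log2 of its background-subtracted intensity over the median of the valid spots of the channel, so a level of 0 is the median spot. CES replicate 2 stood apart: across all genes it correlated with the COS rats at r = 0.974 to 0.983 and with the other CES rats at 0.954 to 0.964, whereas those other CES rats correlated among themselves at 0.978 to 0.988. Values without this rat are given for the members, and for list genes where its absence ends or adds a call or moves the fold by over 1.5 times in a gene named here. Of the genes that mark dentate granule neurons, 7 of the 8 with a spot were quantified, and Prox1 was not well above background in any rat.

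Transcripts of both RT1-D chains, of the RT1-B beta chain and of the invariant chain were lower in CES than in COS. Of the 7 quantified members, 4 passed the test in that direction (RT1-Da, RT1-Db1, RT1-Bb and Cd74), 0 passed it in the other, and in 5 every CES rat lay below every COS rat. The largest differences were those of Cd74, 6.40-fold lower in CES, and RT1-Da, 5.97-fold lower. The test was limma's two-sided test, with a dye term and arrays as random blocks, and a call needed a Benjamini-Hochberg adjusted p under 0.05 across the 20825 genes. The same test called 28.6% of all genes lower and 5.74% higher, and 19.7% of all genes had every CES rat below every COS rat, against 1.55% with every CES rat above. The median difference over the 7 members was −1.14 on the log2 scale, beside −0.25 over all genes, and it was −1.85 without COS replicate 4 and −0.66 without COS replicate 1. The value of −1.14 is that of RT1-Ba, the middle member, which was not called and was well above background in 3 of 8 rats, so the median rests on a dim probe. Without COS replicate 3 the share of all genes called lower was 5.48% and 3 members were called. That share was 17.5% without COS replicate 1, 19.0% without COS replicate 2 and 12.3% without CES replicate 1, with 4, 4 and 3 members called. The split of calls over all genes depended on how channels were scaled: 16.7% of them were higher in CES here, and 57.3% to 65.5% after loess with Aquantile, after quantile normalization, with each channel scaled over spots valid in all rats, or in the deposited log2 table. For that reason the difference of a single gene is also given after the all-gene median has been subtracted, and is then called the relative difference. In whole tissue, fewer cells that make these transcripts and less transcript per cell cannot be told apart.

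**Figure D1:**
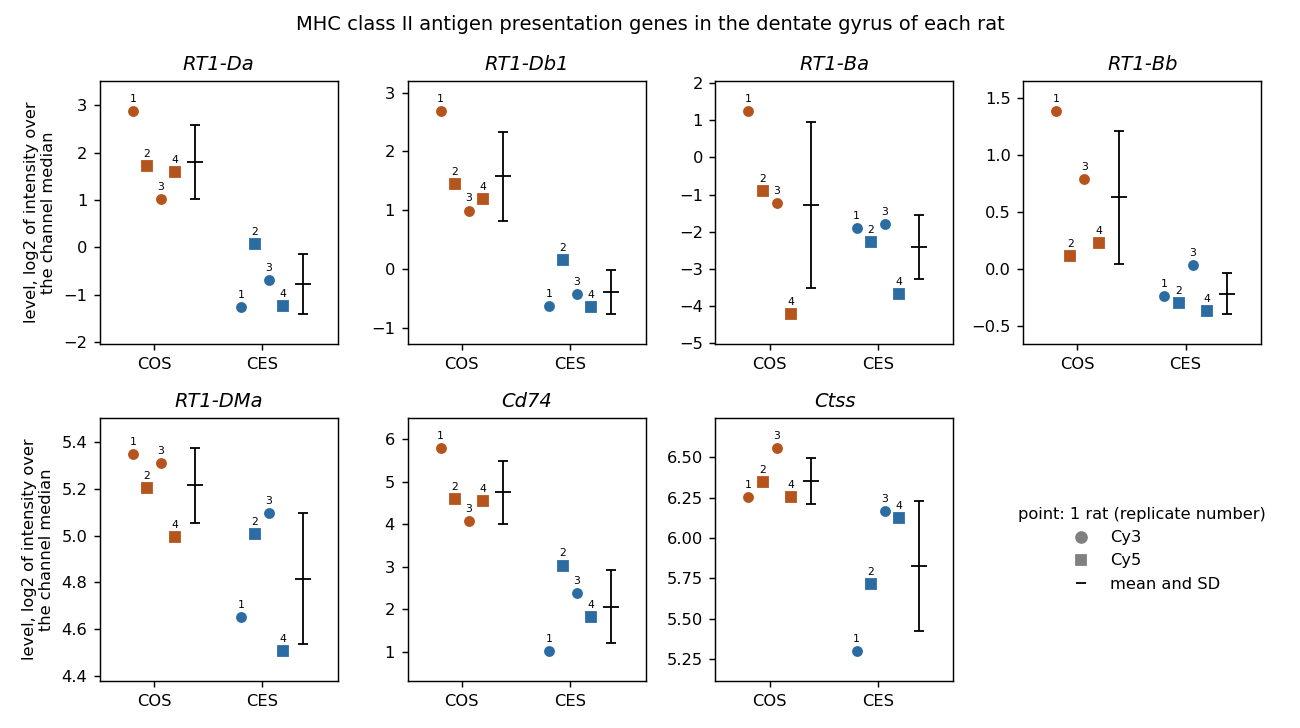
Level of each quantified class II gene (log2 of intensity over the channel median) in the 4 COS and 4 CES rats. Each point is 1 rat with its replicate number, circles are Cy3 and squares Cy5, and bars are mean and SD. COS replicate 1 is the highest rat in 6 of the 7 genes, and the groups overlap for RT1-Ba and RT1-DMa only.

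RT1-Da encodes the alpha chain of RT1-D, the partner of RT1-Db1. Its level was 2.87, 1.72, 1.02 and 1.59 in COS replicates 1 to 4 and −1.27, 0.08, −0.69 and −1.24 in CES replicates 1 to 4. All COS rats lay above all CES rats, with COS replicate 1 the highest of its group and CES replicate 2 the highest of its own. The group means were 1.80 ± 0.77 (SD, n = 4) and −0.78 ± 0.63 (SD, n = 4). The difference was −2.58 with a standard error of 0.41 (limma, adjusted p = 0.00364), the relative difference was −2.32, and 0.677% of all genes had a larger fall. The 2 probes for RT1-Da were also fitted singly. The probe A_44_P991532 (rn4 chr20:4641104-4641163, plus strand) gave a difference of −2.71 ± 0.42 (SE, limma, adjusted p = 0.00339) and the dimmer A_44_P367688 (rn4 chr20:4638704-4638763, plus strand) −2.09 ± 0.39 (SE, limma, adjusted p = 0.00483). The latter cleared background well in only 3 rats of COS and 2 of CES, so its difference rests in part on values near background. On both probes COS replicate 1 was the highest COS rat and CES replicate 2 the highest CES rat.

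RT1-Db1, the beta chain of RT1-D, followed the same course. Its level was 2.68, 1.44, 1.00 and 1.19 in COS replicates 1 to 4 and −0.63, 0.15, −0.42 and −0.65 in CES replicates 1 to 4. The groups did not overlap, and again COS replicate 1 and CES replicate 2 were the highest rats of their groups. In COS the mean was 1.58 ± 0.76 (SD, n = 4), and in CES −0.39 ± 0.37 (SD, n = 4). The difference was −1.96 with a standard error of 0.35 (limma, adjusted p = 0.00474) and the relative difference −1.71. Of its 3 probes, A_44_P130513 (rn4 chr20:4672677-4672736, minus strand) gave −2.06 ± 0.27 (SE, limma, adjusted p = 0.00299) and A_44_P130516 (rn4 chr20:4673410-4673469, minus strand) −1.81 ± 0.46 (SE, limma, adjusted p = 0.0148). The last, A_44_P139882 (rn4 chr20:4677050-4677109), was valid in 4 COS and 0 CES rats but well above background in none, so it has no fold. Over all probes fitted singly, 7 of the 10 member probes tested were called lower, beside 29.4% of the 24861 probes tested.

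**Figure D2:**
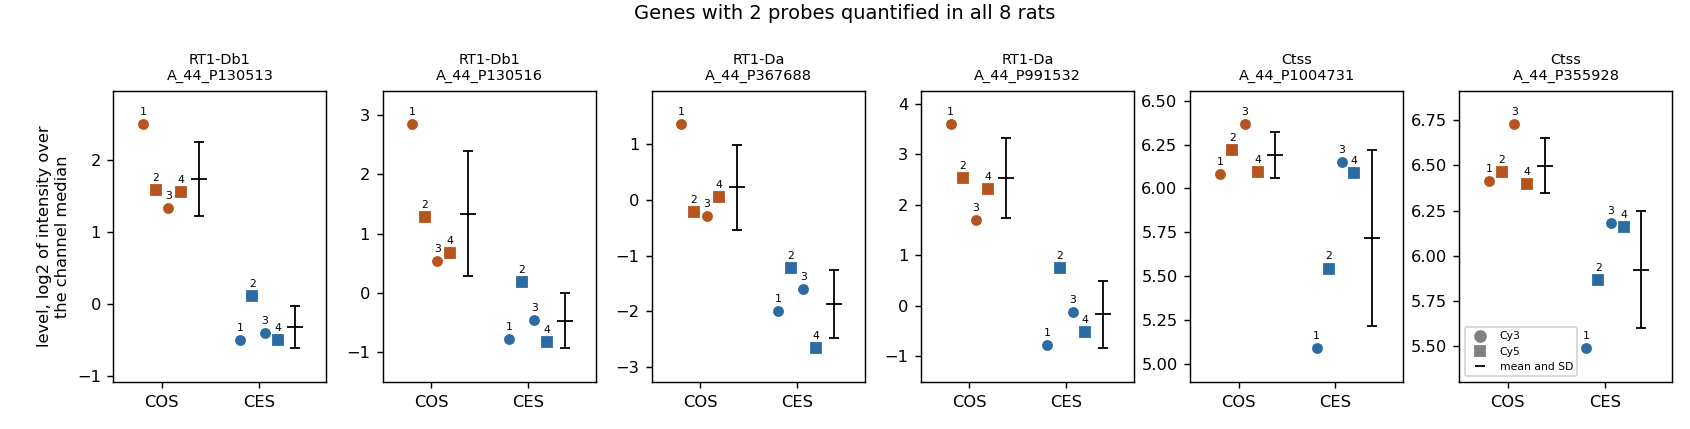
Level of each probe (log2 of intensity over the channel median) in the 4 COS and 4 CES rats for the genes with 2 probes valid in all rats. Symbols are as in the plot of gene levels, and each panel has its own axis. Both RT1-Da and both RT1-Db1 probes separate the groups, whereas of the Ctss probes A_44_P355928 does and A_44_P1004731 does not.

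RT1-Ba and RT1-Bb encode the alpha and beta chains of RT1-B. RT1-Bb was lower in CES. Its level was 1.39, 0.12, 0.79 and 0.23 in COS replicates 1 to 4 and −0.24, −0.30, 0.04 and −0.36 in CES replicates 1 to 4. The groups did not overlap, but the lowest COS rat was only just above the highest CES rat. The means were 0.63 ± 0.58 (SD, n = 4) and −0.21 ± 0.18 (SD, n = 4). The difference was −0.85 ± 0.21 (SE, limma, adjusted p = 0.0131), the relative difference was −0.59, and 15.8% of all genes had a larger fall. After loess with Aquantile the difference was −0.45 (limma, adjusted p = 0.229) and after normexp background correction −0.53 (limma, adjusted p = 0.494). Without COS replicate 3 it was −0.89, no smaller than with that rat, but the adjusted p was 0.0728, and without CES replicate 1 it was −0.72 (limma, adjusted p = 0.0634). These values come from A_44_P500803 (rn4 chr20:4732962-4733021, minus strand). The other RT1-Bb probe, A_44_P552452 (rn4 chr20:4730533-4730583, minus strand), was well above background in COS replicates 1 and 2 alone, at 3.00 and 1.56, and in no CES rat. The files place its 60 bases on an interval of 51 bases, shorter than the probe.

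RT1-Ba gave no call. Its level was 1.24, −0.90, −1.24 and −4.21 in COS replicates 1 to 4 and −1.91, −2.28, −1.80 and −3.67 in CES replicates 1 to 4. COS replicate 1 was the highest of all rats and COS replicate 4 the lowest, so the groups overlapped over the whole CES range. The spread in COS was an SD of 2.24 (n = 4), larger than the difference of −1.14 ± 0.74 (SE, limma, adjusted p = 0.255). Without COS replicate 4 the difference was −1.85 (limma, adjusted p = 0.0504) and without COS replicate 1 it was −0.53. Without CES replicate 2 it was −1.56 (limma, adjusted p = 0.110). Only 2 COS rats and 1 CES rat had the spot well above background. The probes for RT1-Ba are printed because they read the same stretch of the gene with different letters. They share a window of 57 bases in which 49 are identical, 5 are substituted and 3 are present in 1 probe only, and capitals mark the bases that differ.
A_44_P128248: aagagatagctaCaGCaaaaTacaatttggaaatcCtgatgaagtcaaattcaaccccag
A_44_P194167: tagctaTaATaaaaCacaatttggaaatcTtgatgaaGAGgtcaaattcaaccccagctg
The levels above are those of A_44_P194167, for which the files give no rn4 position. A_44_P128248, which the files place at rn4 chr20:4700973-4701032 on the plus strand, was valid in 1 COS and 0 CES rats and well above background in none. Class II genes are among the most variable between rat strains, and which sequence these outbred rats carry was not tested.

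RT1-DMa encodes the alpha chain of the DM peptide editor. Its level was 5.35, 5.20, 5.31 and 4.99 in COS replicates 1 to 4 and 4.65, 5.01, 5.10 and 4.51 in CES replicates 1 to 4. The groups overlapped, with CES replicates 2 and 3 just above COS replicate 4. Means were 5.22 ± 0.16 (SD, n = 4) and 4.82 ± 0.28 (SD, n = 4). The difference of −0.40 ± 0.18 (SE, limma, adjusted p = 0.114) did not pass, and the relative difference was −0.15. Without CES replicate 2 the gene was called, at −0.51 (limma, adjusted p = 0.0440). Its single probe of 60 bases is placed on an interval of 363 bases of rn4 (chr20:4843704-4844066, minus strand). The partner chain RT1-DMb was not measured here.

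Cd74, the invariant chain, showed the largest difference among the members. Its level was 5.79, 4.58, 4.07 and 4.54 in COS replicates 1 to 4 and 1.03, 3.03, 2.38 and 1.81 in CES replicates 1 to 4. All COS rats lay more than 1 log2 unit above the highest CES rat, which was replicate 2, and the lowest was CES replicate 1. The means were 4.74 ± 0.73 (SD, n = 4) and 2.07 ± 0.85 (SD, n = 4). The difference was −2.68 ± 0.45 (SE, limma, adjusted p = 0.00404), the relative difference was −2.42, and 0.567% of all genes had a larger fall. The spot (A_44_P549494, rn4 chr18:56765468-56765527, plus strand) was well above background in all 8 rats.

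Ciita, the transactivator itself, could not be followed. Its single spot (A_44_P435782, rn4 chr10:5087172-5087231, minus strand) was valid in 1 COS and 3 CES rats and well above background in none. No level or fold is given for it, and at this signal a difference in Ciita was not detectable.

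Ctss, the protease that trims Cd74, had every CES rat below every COS rat but did not pass the test. Its level was 6.26, 6.35, 6.56 and 6.25 in COS replicates 1 to 4 and 5.30, 5.71, 6.17 and 6.12 in CES replicates 1 to 4. CES replicates 3 and 4 lay just under the COS rats, and CES replicate 1 was the lowest. The means were 6.35 ± 0.14 (SD, n = 4) and 5.83 ± 0.40 (SD, n = 4), and the difference was −0.53 ± 0.22 (SE, limma, adjusted p = 0.0865). The relative difference was −0.27. Fitted singly, A_44_P355928 (rn4 chr2:190466474-190466533, plus strand) passed at −0.58 ± 0.20 (SE, limma, adjusted p = 0.0470), whereas A_44_P1004731 (rn4 chr2:190466683-190466742, plus strand) did not at −0.47 ± 0.24 (SE, limma, adjusted p = 0.158). Ctss was also called without CES replicate 3 (limma, adjusted p = 0.0146) and without CES replicate 4 (limma, adjusted p = 0.0169). With any other single rat left out it was not called. The difference was −0.33 without CES replicate 1 (limma, adjusted p = 0.250) and −0.47 without CES replicate 2 (limma, adjusted p = 0.135). Without COS replicate 3 it was −0.43 (limma, adjusted p = 0.266). Ctss was called under 4 of the 24 alternative ways of processing.

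Within COS most members had the same highest rat, whereas within CES they were split. COS replicate 1 was the highest COS rat in 6 of the 7 genes, Ctss being the exception. The share of all genes that were highest in that rat was not counted. The highest CES rat was replicate 2 for RT1-Da, RT1-Db1 and Cd74 and replicate 3 for the rest. The lowest CES rat was replicate 4 in 4 genes and replicate 1 in the other 3. Without COS replicate 1 the differences were −2.14 for RT1-Da, −1.55 for RT1-Db1, −0.66 for RT1-Bb and −2.23 for Cd74, and all 4 calls held, RT1-Bb with an adjusted p of 0.04998 in limma, just under the threshold. Without CES replicate 2 they were −2.91, −2.20, −0.92 and −3.02, and 5 members were called lower, beside 33.0% of all genes. The difference was negative within each dye, at −2.92 for RT1-Da, −2.37 for RT1-Db1, −1.19 for RT1-Bb and −3.22 for Cd74 among Cy3 rats. Among Cy5 rats it was −2.23, −1.56, −0.50 and −2.14 for the same genes, smaller for each, and with 2 rats a group within a dye these values were not tested.

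RT1-Da, RT1-Db1 and Cd74 were called lower under 23 of the 24 alternative ways of processing, the exception being the methods' t-test (adjusted p = 0.0768, 0.0849 and 0.0773), which called 0 genes in all. Its p-values were adjusted here by Benjamini-Hochberg across all genes, which the methods do not do, and before that adjustment 3 of the 7 members and 5909 of the 20825 genes passed 0.05. RT1-Bb was called under 15 of 24. The relative difference ranged from −2.64 to −1.58 for RT1-Da, from −1.98 to −1.19 for RT1-Db1 and from −2.75 to −1.95 for Cd74. It ranged more widely for RT1-Bb, from −1.40 to −0.38, and for RT1-Ba, from −1.51 to −0.25. Those of RT1-DMa and Ctss stayed closer to 0, between −0.29 and −0.06 and between −0.43 and −0.13. All 7 members were lower in CES under every alternative that gave a value for them, and their relative differences were below 0 in each as well.

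**Figure D3:**
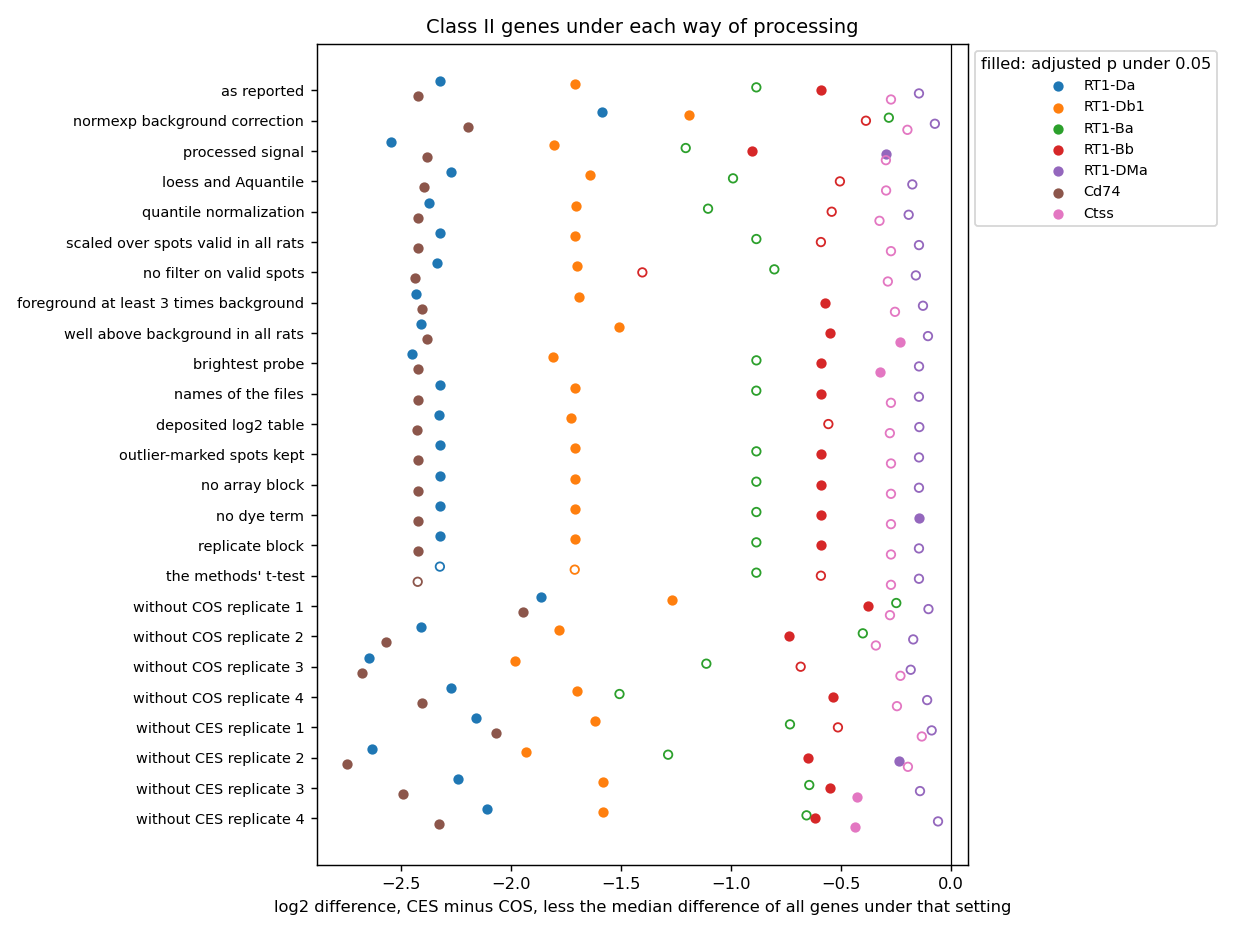
Difference of each quantified class II gene between CES and COS (log2, CES minus COS) less the median difference of all genes, under each way of processing listed on the vertical axis. Filled points passed limma's (or the methods' t-test's) adjusted p of 0.05. RT1-Da and Cd74 lie furthest from 0 under each setting, RT1-Db1 next, and RT1-DMa and Ctss nearest to 0 under most.

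The start sites of class II genes are known for a shared module in which an X box, bound by the RFX complex, lies upstream of a Y box, bound by NF-Y. The sequences upstream of the members are shown because they carry these letters at a similar distance. RefSeq promoters (build GRCr8, from 250 bases before to 50 after the start) were matched by symbol for 7 of the 9 members, RT1-Da, RT1-Db1, RT1-Ba, RT1-Bb, RT1-DMa, Cd74 and Ctss. The lines give the 120 bases before the start of the 5 class II chain genes, on the strand of the gene, with capitals for ACNGATG, the end of the X box, and for GATTGG, the core of the Y box.
RT1-Da: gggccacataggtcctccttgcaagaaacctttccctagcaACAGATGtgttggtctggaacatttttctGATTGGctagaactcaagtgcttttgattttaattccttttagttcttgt
RT1-Db1: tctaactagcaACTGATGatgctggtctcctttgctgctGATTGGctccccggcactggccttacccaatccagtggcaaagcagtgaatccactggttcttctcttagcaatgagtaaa
RT1-Ba: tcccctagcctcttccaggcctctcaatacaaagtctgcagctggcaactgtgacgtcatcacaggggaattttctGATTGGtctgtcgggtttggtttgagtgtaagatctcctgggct
RT1-Bb: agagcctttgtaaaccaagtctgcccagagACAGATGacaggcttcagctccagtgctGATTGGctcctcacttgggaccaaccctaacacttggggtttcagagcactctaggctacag
RT1-DMa: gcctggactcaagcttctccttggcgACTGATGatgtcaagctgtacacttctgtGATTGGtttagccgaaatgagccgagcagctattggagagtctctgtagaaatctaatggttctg
These are chr20:4515295-4515414 on the plus strand for RT1-Da, chr20:4560163-4560282 on the minus strand for RT1-Db1, chr20:4576937-4577056 on the plus strand for RT1-Ba, chr20:4604119-4604238 on the minus strand for RT1-Bb and chr20:4712336-4712455 on the minus strand for RT1-DMa.

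The first letter of ACNGATG lay 29 bases before that of GATTGG in RT1-Da and RT1-DMa and 28 bases before it in RT1-Db1 and RT1-Bb. In RT1-Ba GATTGG stood 44 bases before the start and ACNGATG was not found. Searched on both strands, ACNGATG occurred in 10.2% and GATTGG in 14.8% of the 33469 promoters. ACNGATG followed by GATTGG on the strand of the gene, with 10 to 40 bases between their first letters, occurred in 15 promoters (0.0448%). These 15 included 6 class II genes, namely RT1-Da, RT1-Db1, RT1-Bb and RT1-DMa and the non-members RT1-Db2, at 27 bases, and RT1-DOb, at 26. The promoter of Cd74 held neither set of letters in this window, and that of Ctss held ACNGATG alone, 212 bases before the start. The letters and the spacing were chosen after the sequences had been read, so the shares are descriptions. Of the genes with the pair, RT1-Da fell and RT1-DMa did not pass, and Cd74, with no match to it, had the largest difference. Only exact letters were searched, so a gene without a match may still hold an X or a Y box. The part of the module in the differences was not tested.

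The other genes of the route were taken from lists, and each list is described by its counts and median, to be read beside the 28.6% of all genes called lower and the all-gene median of −0.25. The counts were repeated under 14 other settings, namely 6 with another background correction, scaling or table of values and 8 with 1 rat left out. The share of all genes called lower moved as well. It was 2.30% after normexp, 9.33% after loess with Aquantile, 5.48% without COS replicate 3 and 12.3% without CES replicate 1. It was 33.4% without CES replicate 3, and each count is to be read beside the share of its own setting. Among the other class II chains, RT1-Db2, a further beta chain gene, was lower in CES, with levels from −0.31 to 1.65 in COS and from −1.46 to −0.83 in CES (difference −1.64 ± 0.39 SE, limma, adjusted p = 0.0115). Its spot was well above background in 3 rats of COS and 2 of CES. Db1 and Db2 are close relatives, and how far their probes share transcripts was not tested. RT1-DOa was well above background in 2 COS rats and 0 CES rats, and RT1-DOb in none.

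Of 11 quantified endosomal processing genes, 6 fell, 0 rose, and the median difference was −0.71. They were led by Ctsz, a lysosomal carboxypeptidase, which ran from 3.31 to 3.93 in COS and from 0.48 to 2.90 in CES (−2.40 ± 0.47 SE, limma, adjusted p = 0.00576), and without CES replicate 2 the difference was −3.01. Ifi30, the lysosomal thiol reductase that unfolds antigens, ran from 4.11 to 4.57 in COS and from 2.51 to 3.66 in CES, a difference of −1.30. Lgmn, an asparaginyl endopeptidase, ran from 5.80 to 6.39 in COS and from 4.14 to 5.54 in CES, and Ctsl, another cathepsin, from 6.02 to 6.60 and from 4.85 to 5.47. Ctsb and Ctsh did not pass, at −0.49 and −0.14. Under the 14 other settings between 1 and 7 of these genes were called lower and 0 higher, and the count was 1 after normexp and without COS replicate 3.

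Of the 7 genes that act on the class II promoter, 4 were lower and 0 higher, with a median difference of −0.66. Rfxank, a subunit of RFX, ran from 1.95 to 2.70 in COS and from 1.06 to 1.78 in CES (−0.82 ± 0.20 SE, limma, adjusted p = 0.0135). Nfyb, a subunit of NF-Y, had a difference of −0.66, and Creb1, which binds next to the X box, one of −1.05, and both passed. Rfx5, the subunit that contacts the X box, was not well above background in any rat. Between 0 and 4 of the 7 genes were called lower under the other settings, and 0 higher. The count was 0 after normexp, after loess with Aquantile and without COS replicate 3, and 1 without CES replicate 1.

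Of 7 quantified genes on the route from interferon gamma to Ciita, 3 were lower and 0 higher, with a median difference of −0.61, a count close to what 28.6% of 7 genes gives. Irf1, a transcription factor induced by interferon gamma, ran from −0.64 to 0.17 in COS and from −1.99 to −1.22 in CES (−1.35 ± 0.21 SE, limma, adjusted p = 0.00372), with a spot well above background in only 3 rats of COS and 2 of CES, so the size of its difference is uncertain. The kinase Jak2 and the receptor chain Ifngr1 were lower too, with differences of −1.14 and −0.84. Ifng itself was well above background in 0 COS rats and 1 CES rat and was not quantified. Under the other settings 0 to 5 of these genes were called lower, 0 after normexp, 1 without COS replicate 3 and 5 without CES replicate 3.

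All 3 quantified genes of co-stimulation and CD4 contact were lower, with a median difference of −1.56. Cd86, a ligand of CD28, ran from −0.30 to 0.63 in COS and from −3.43 to −0.69 in CES (−2.24 ± 0.47 SE, limma, adjusted p = 0.00749), and −2.87 without CES replicate 2. It was well above background in 4 COS rats and 1 CES rat, so the size of its difference is uncertain. Cd83, a surface protein that stabilises class II, fell by 0.75 on the log2 scale. Cd40 fell by 1.56, with overlapping groups. After normexp background correction and without COS replicate 3, 0 of the 3 were called, and 1 to 3 under the other 12 settings. Cd4, Lag3 and Cd80 were not well above background in any rat.

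**Figure D4:**
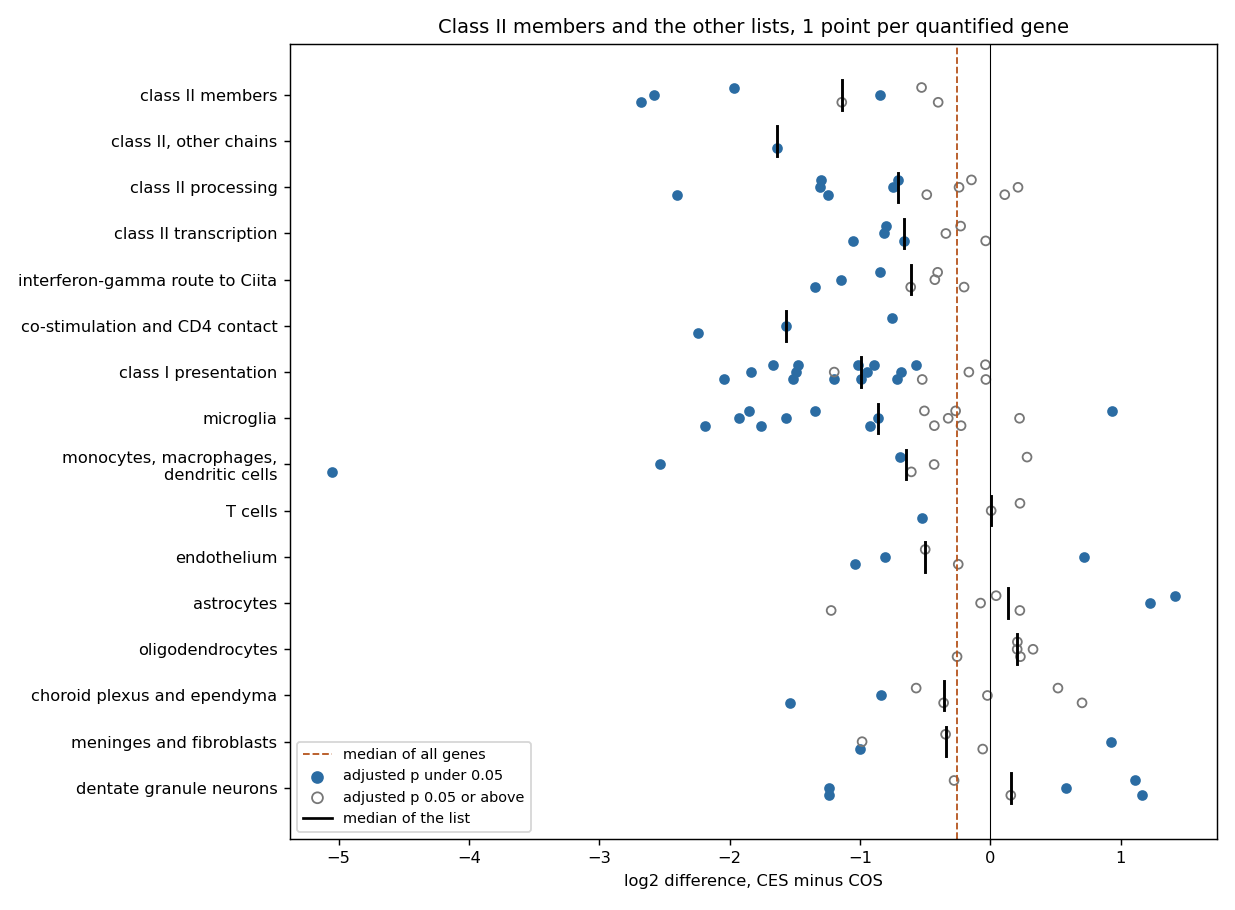
Difference between CES and COS (log2, CES minus COS) of each quantified gene of the class II group and of the other lists. Each point is 1 gene, filled where limma's adjusted p was under 0.05, black bars are list medians and the dashed line is the median of all genes at −0.25. The class II median of −1.14 lies to the left of it, and so do the medians of co-stimulation (−1.56) and microglia (−0.86), whereas those of astrocytes (0.14) and oligodendrocytes (0.21) lie to the right.

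Some markers of cells that make class II molecules moved with the members. Of 15 quantified microglial markers 8 were lower and 1 higher in CES, with a median difference of −0.86, and their summed linear level ran from 294.1 to 408.6 in COS and from 127.8 to 233.0 in CES. Under the 14 other settings 1 to 10 were called lower, 2 after normexp, 3 after loess with Aquantile, 1 without COS replicate 3 and 5 without CES replicate 1. Cd68, a lysosomal protein of phagocytes, had a difference of −2.19 ± 0.38 (SE, limma, adjusted p = 0.00430), with levels from 2.33 to 3.26 in COS and from −0.24 to 1.66 in CES. Itgam, Tyrobp and C1qc, an integrin, an adaptor of surface receptors and a complement subunit, differed by −1.92, −1.85 and −1.76, and C1qb, the marker with the highest mean level, by −1.35. Without CES replicate 2 the difference of Itgam was −2.50. In contrast, P2ry12, the purinergic receptor of surveying microglia, rose by 0.93 (limma, adjusted p = 0.00782), with overlapping groups. Aif1, Trem2 and Cx3cr1 did not pass, with differences between −0.43 and −0.27, although without CES replicate 2 Cx3cr1 was called at −0.54 (limma, adjusted p = 0.0428), and Siglech was not well above background in any rat.

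Of 6 quantified markers of monocytes, macrophages and dendritic cells, 3 were lower and 0 higher, with a median difference of −0.65, and their summed level ran from 138.6 to 175.0 in COS and from 10.6 to 49.8 in CES. Lyz2 and Cd14 made up 97.5% to 98.6% of that sum in COS and 81.7% to 96.4% in CES, so it describes these genes rather than the list. Cd14, a receptor for bacterial lipopolysaccharide, ran from 5.84 to 6.50 in COS and from −0.68 to 4.44 in CES (−5.05 ± 0.87 SE, limma, adjusted p = 0.00423), and without CES replicate 2 the difference was −6.24. Lyz2, the lysozyme of myeloid cells, differed by −2.54 ± 0.35 (SE, limma, adjusted p = 0.00329). Flt3, Mrc1 and Clec10a did not pass, at 0.28, −0.43 and −0.61, although without CES replicate 2 Clec10a was called at −0.65 (limma, adjusted p = 0.0486), and 2 to 4 markers of the list were called lower under the 14 other settings. Ccr2, Cd163 and Xcr1 were not well above background in any rat. In CES the summed level was highest in replicate 2 and lowest in replicate 1, as was Cd74. The summed levels of the microglial markers and of class I presentation genes had the same highest and lowest CES rats. The pattern is thus not particular to this list. Of the B cell markers with a spot, none was quantified in all rats, and Cd79a was well above background in none. Of the 3 quantified T cell markers, Cd3d, which had the highest mean level, differed by 0.01 and Lck was lower at −0.52 (limma, adjusted p = 0.0454), and the summed level ran from 1.44 to 2.85 in COS and from 1.76 to 3.08 in CES. The part of any cell type in the class II differences was not tested.

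Markers of the other cell types did not separate the groups by their summed level, a linear sum weighted to each list's brightest marker. For endothelium it ran from 19.7 to 26.1 in COS and from 17.2 to 25.0 in CES, with 2 of 5 quantified markers called lower, among them Flt1 at −1.04, and Slco1a4 called higher at 0.72. For meninges and fibroblasts it ran from 19.2 to 86.4 and from 23.1 to 28.0, with 1 marker called lower, Col1a2, and 1 called higher. For choroid plexus and ependyma it ran from 22.9 to 628.0 in COS and from 20.6 to 199.5 in CES. Of the 7 quantified markers there, 2 were called lower without overlap of the groups, Foxj1 and Tmem212, and 0 higher. The highest rat by this sum was COS replicate 2, where Ttr, the transthyretin of choroid plexus, reached 9.22. Whether choroid plexus tissue adds to the class II levels was not tested.

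The genes whose levels over the 8 rats were most like the mean of the 7 members were Fcgr3a (r = 0.989), Map3k14 (r = 0.987), LOC688280 (r = 0.986), RT1-CE7 (r = 0.985) and Tapbp (r = 0.985). These correlations are Pearson's r over 8 rats in 2 groups, with rats of a group also sharing arrays, and describe the likeness only. The mean of the members includes RT1-Ba, the dim member with the widest spread in COS (SD 2.24). The ranking thus rests in part on that probe, and a ranking without it was not made. Fcgr3a encodes a receptor for immunoglobulin G, Map3k14 a kinase of the non-canonical NF-kB route, RT1-CE7 a class I molecule, and Tapbp tapasin, which loads class I. Fcgr3a ran 2.82, 1.81, 1.22 and 0.72 in COS replicates 1 to 4 and −1.27, 0.15, −0.08 and −1.37 in CES replicates 1 to 4. COS replicate 1 was again the highest rat and CES replicate 4 the lowest.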

How the data were processed

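Total RNA from the DG of 8 rats was measured on 4 2-colour arrays. The authors deposited, per the file headers, scanner files of Agilent Feature Extraction (10.7.3.1, per the sample records), which hold raw foreground and background intensity for every spot, with positions on rn4. They also deposited a table of log2 values of the median signal less background, relative to the channel median.

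From the intensities, levels were computed by the first steps of the methods: spots needed a foreground at least 2 times background to be valid, background medians were subtracted from mean signals, each channel was scaled to the median of its valid spots, spots valid in all rats were averaged per gene, and log2 was taken. The methods then renormalize iteratively across labels and conditions with an in-house algorithm, which was not applied here. The t-test of the methods was run without their fold cut-off and with Benjamini-Hochberg adjustment added. The 1593 spots marked as outliers in any rat were left out (no member spot was among them), and 0 spots were saturated. Probes were named through RefSeq accessions for 17512 of 41012 probes, otherwise as in the files. The number of arrays limits the precision, and the median standard error of a difference was 0.20.

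The groups were compared in limma 3.58.1 (R 4.3.3, statmod 1.5.0) by two-sided tests that held a fixed dye term and a random array block, and p-values were adjusted by Benjamini-Hochberg across all genes, with calls at 0.05. An array holds rats of 1 group, so it can enter only as a random block. The estimated correlation within arrays was −0.01, so rats that shared an array were treated as nearly independent. It was 0.56 after normexp and 0.24 after loess with Aquantile. The code was tested on simulated data in which 200 of 20825 genes were changed. It recovered 7% of changes of 1 log2 unit and 79% of changes of 2, with 4 false calls among 90. The simulated noise was the spread within groups, which still held the dye difference that the fit removes. No dye difference was simulated as such, so these shares are not the power of the comparison made here. A gene that was not called may still differ. Whether the replicates came from separate animals is stated by the methods, and RNA handling batches are not given in the sources used here. Same-numbered COS and CES rats deviated together (r = 0.33, 0.21, 0.31 and 0.35). They share a dye, and after the mean of each dye was removed r lay between −0.06 and −0.04. The 2 rats of a group in a dye then deviate by opposite amounts, so the sign of r follows the matching chosen. These values therefore cannot show whether same-numbered rats belong together.

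The members and lists were chosen with earlier results of these data known. Besides the 9 members, genes were named if a list gene was called by limma with non-overlapping groups (at most 4 a direction by size), if a marker had the highest mean of its cell type, or if among the 5 most correlated with the mean of the members; single genes outside this rule, such as those that did not pass, were named after their values were seen. Of the highest markers not named in the text, Cldn5, Slc1a3, Igf2 and Snap25 had differences of −0.25, −0.07, −0.98 and 0.16, none called, and some items are not reported here. Sequences are RefSeq (GRCr8) or the files' own probes. Python 3.11.15, numpy 2.4.6, pandas 2.3.3, Biopython 1.88 and matplotlib 3.10.9 were used. Alternatives were normexp (offset 50), the processed signal, loess with Aquantile, quantile normalization, scaling over spots valid in all rats, no filter, 3 times background, only spots that the software marks as well above background, leaving out the dye term or the array block, the replicate block, the brightest probe, the names in the files, the methods' t-test, the deposited table and each rat left out; keeping the outlier spots and each probe on its own were chosen after seeing the data.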

Additional observations from a re-analysis of the deposited data

Results flagged for a closer look

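Of 106 groups of 4 rats examined (members and named genes), 2 held a rat far from the other 3, where chance marks about 5% of groups. RT1-Db2 in CES replicate 2 stood at −0.83, above the other CES rats, and Psme1, an activator of the immunoproteasome, in COS replicate 4 stood at 5.23, below the other COS rats. No class II member was among them.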

How the results depend on the processing

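The direction of all 7 members held under each alternative that gave a value, and the calls of RT1-Da, RT1-Db1 and Cd74 under all but the methods' t-test. The number of members called lower was 4 (3 to 5 with a rat left out) and 0 by the methods' t-test, which at an unadjusted p under 0.05 passed 3 of 7 members and 5909 of 20825 genes. The median member difference was −1.14, −0.53 after normexp, and −1.85 to −0.66 with a rat left out, the ends being without COS replicate 4 and without COS replicate 1. The cause was not tested.

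Counts over all genes, 1195 higher and 5957 lower, moved far more. They were 132 and 479 after normexp, 2999 and 1943 after loess with Aquantile, 3014 and 2242 after quantile normalization, 3384 and 1783 with scaling over spots valid in all rats, 403 and 2820 without a filter, 3213 and 1927 in the deposited log2 table, and 0 and 0 by the methods' t-test. With a rat left out they ran from 285 to 1812 higher and from 1142 to 6954 lower. The lowest counts came without COS replicate 3. Counts of lower genes also moved over 1.5 times without COS replicate 1 (3635), COS replicate 2 (3959) and CES replicate 1 (2563), and of higher genes without COS replicate 1 (497), COS replicate 4 (522), CES replicate 1 (536) and CES replicate 2 (1812).

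RT1-Bb lost its call after normexp, loess, quantile normalization, scaling over spots valid in all rats, no filter and in the deposited table (adjusted p 0.0929 to 0.494), and without COS replicate 3 or CES replicate 1. RT1-DMa was called with the processed signal, without the dye term and without CES replicate 2 (adjusted p 0.0440 to 0.0496). Ctss was also called when only spots well above background in each rat were used and from its brightest probe (adjusted p 0.0437 and 0.0490). With the replicate block 1198 genes were higher and 6521 lower, the 4 members called were RT1-Da, RT1-Db1, RT1-Bb and Cd74, and no member's call changed. Signal over background limits Ciita, RT1-Ba, the third RT1-Db1 probe and the second RT1-Bb probe, which have no firm level in CES.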

Other observations

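Genes of class I presentation, the companion route that shows peptides from the cytosol to CD8+ T cells, were lower in CES as well. Of 19 quantified genes of that list 14 were called lower and 0 higher, with a median difference of −0.99 on the log2 scale, beside 28.6% of all genes called lower. Psmb8, a subunit of the immunoproteasome, ran from 2.83 to 3.20 in COS and from 0.12 to 2.50 in CES (−2.05 ± 0.43 SE, limma, adjusted p = 0.00745). Psme1 differed by −1.67 ± 0.29 (SE, limma, adjusted p = 0.00445), the class I gene RT1-N3 by −1.52 and the peptide transporter Tap1 by −1.48. B2m, the light chain of class I and the highest in level of the list, ran from 7.09 to 7.40 in COS and from 5.80 to 6.85 in CES. Without CES replicate 2 the difference of Psmb8 was −2.60. Between 2 and 15 of the 19 genes were called lower under 14 other settings (6 with another background correction, scaling or table, 8 with 1 rat left out). The list's median stayed negative in each, from −1.15 to −0.60. The count was 2 after normexp and without COS replicate 3, beside 2.30% and 5.48% of all genes. It was 5 without CES replicate 1 and 7 without COS replicate 1, beside 12.3% and 17.5%.

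Neuronal and astrocytic markers included genes that rose in CES. Over all genes 5.74% were called higher and 28.6% lower. Of 7 quantified markers of dentate granule neurons, 3 were called higher and 2 lower, with a median difference of 0.16 on the log2 scale. Neurod2 and Neurod1, transcription factors of granule neurons, rose by 1.11 and 1.16, with overlapping groups. Syt1 rose by 0.58 (limma, adjusted p = 0.0288), with overlapping groups as well. C1ql2 fell by 1.23 (limma, adjusted p = 0.00967), also with overlapping groups. Dsp, a desmosomal protein of granule cells, fell by 1.24 (limma, adjusted p = 0.00642). The Dsp spot was well above background in only 3 rats of COS and 2 of CES, so the size of its difference is uncertain. Of 6 quantified astrocyte markers, 2 were called higher and 0 lower, with a median difference of 0.14. Aldh1l1, a folate enzyme, was higher by 1.23 ± 0.24 (SE, limma, adjusted p = 0.00597). Gja1 was higher by 1.42 (limma, adjusted p = 0.0240), with overlapping groups. Gfap did not pass at −1.22 ± 0.44 (SE, limma, adjusted p = 0.0531) but was called without CES replicate 2 at −1.56 ± 0.39 (SE, limma, adjusted p = 0.00908). The ependymal factor Foxj1 was lower, from 2.83 to 3.21 in COS and from 0.98 to 1.90 in CES (−1.54 ± 0.21 SE, limma, adjusted p = 0.00326), and Tmem212, another ependymal gene, differed by −0.84.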
